A study of Rattus norvegicus with 8 samples.

Results

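Collagen genes were described in RNA-seq libraries of rat astrocytes exposed to human melanoma cells. A gene belonged to the set if its symbol in the count table had the form of a collagen chain (Col, the number of the collagen type, the letter a and the number of the chain) and if it held 10 or more counts in at least 3 libraries. This kept 28 of the 43 collagen rows, out of 28546 rows in the table. The astrocytes came from Sprague Dawley rat pups and formed 3 groups of libraries. All 3 groups met 12-273 BM melanoma cells or medium from them, for which the labels give 24 h. In control (n = 2) the melanoma cells carried a scrambled hairpin. In sh-APP (n = 3) they carried a hairpin against the gene of the amyloid precursor protein. In anti-Abeta (n = 3) the hairpin was again the scrambled one, with an antibody to amyloid beta added. The labels speak both of a co-culture and of conditioned medium, and name 1 melanoma culture and 1 hairpin design. Astrocytes without melanoma and a control antibody were not analysed here. Nothing in the labels states that the libraries within a group are separate cultures. The p-values therefore cover only the spread between these libraries, which may be technical.

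Collagens are secreted proteins whose chains wind around each other into a triple helix built on repeats that begin with glycine. Fibrillar collagens form the tensile fibres of connective tissue, and fibril-associated collagens sit on the surface of those fibres. Network collagens form sheets, above all the type IV sheet of the basement membrane that lies under astrocyte endfeet and around vessels. Type VI collagen forms beaded filaments between the fibres and the basement membrane. Astrocytes in the healthy brain are surrounded by a matrix poor in fibrillar collagen, and collagen deposits appear at scars, vessels and tumours.

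The genes of the main type IV chains, Col4a1 and Col4a2, lie head to head and are read away from each other from a common promoter. The stretch between their annotated starts is shown because it lies before both genes, whose values are set side by side further on. Col4a6 and Col4a5 on chromosome X are also neighbours, 1263 bases apart with no annotated gene between, and that stretch was not examined. The stretch between Col4a2 and Col4a1 is 76 bases long and lies at chr16:84885521-84885596 of the RefSeq assembly GRCr8. It is printed on the plus strand, on which Col4a1 is read. Capitals mark a GC box (GGGCGG, here on the minus strand).
Col4a2 to Col4a1: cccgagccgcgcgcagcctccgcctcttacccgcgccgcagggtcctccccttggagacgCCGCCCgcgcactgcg
The share of G and C in it was 78.9%. Of the 28 members, 21 had a promoter in the RefSeq table, which spans 250 bases before to 50 after a start. A GC box on either strand stood in 16 of these 21 and in 33.1% of all 33469 promoters. The letters CCAAT were in 5 of the 21 and in 37.5% of all promoters, and TATAAA in 0 of the 21 and in 14.2%. Among the 5 with CCAAT were Col4a1 and Col4a2. The median share of G and C was 61.0% in the member promoters and 51.7% in all, and these counts are a description of letters, not of binding.

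The total count ran from 34250464 to 47831595 per library. App, the rat amyloid precursor gene, had 559 and 587 TMM-scaled CPM (counts scaled to library size) in control, 590 to 648 in sh-APP and 514 to 576 in anti-Abeta. These values do not measure the knockdown, which was made in the melanoma cells. Anti-Abeta replicate 2 stood apart from its group, since its counts differed from those of the other anti-Abeta libraries with a chi-square of 30.9 and 45.8 times its degrees of freedom, and the other pairs within groups with 17.1 to 20.4 times. The summed level of 10 astrocyte markers was 15687 to 16045 CPM in control, 16873 to 19351 in sh-APP and 13777 to 14774 in anti-Abeta. Gfap, the filament protein of reactive astrocytes, carried the higher sh-APP sum, with 2897 to 2925 CPM in control, 5513 to 7180 in sh-APP and 3388 to 3914 in anti-Abeta. Without Gfap the sum of the other 9 was 12762 to 13148, 11147 to 12449 and 9863 to 11386 CPM in the same order. Of the 10, 6 were called higher and 1 lower (Gja1) in sh-APP, and 3 higher and 3 lower in anti-Abeta. Of 18 markers of fibroblasts, meningeal cells and mural cells, which make much collagen in other tissues, the sum was 60.7 to 66.2 CPM in control, 45.8 to 52.4 in sh-APP and 58.7 to 76.2 in anti-Abeta. Pdgfra carried the lower sh-APP sum, with 32.5 and 34.9 CPM in control and 16.5 to 17.3 in sh-APP. Pdgfrb went the other way, with 5.28 and 5.72 CPM in control and 9.88 to 10.7 in sh-APP. Over the tested markers of this list the median log2 fold change in sh-APP against control was -0.43, and it was 0.03 over all tested genes. Whether the list as a whole fell was not tested. Rgs5, Abcc9 and Tbx18 of that list stayed under 10 counts in every library. Of 14 tested members, 1 was called higher (Pdgfrb) and 1 lower (Pdgfra) in sh-APP against control. In anti-Abeta against control 1 was called higher (Cspg4) and 0 lower. The background for the astrocyte list, this list and the lists that follow is the share of calls among the 14445 tested genes. Against control, sh-APP had 25.8% of those genes higher and 27.9% lower, and anti-Abeta had 12.7% higher and 16.6% lower. Of 7 microglia and macrophage markers, Cx3cr1 was at 0 and Aif1 and P2ry12 stayed under 10 counts in every library, with a sum of 11.7 to 15.4 CPM in control, 10.5 to 13.0 in sh-APP and 11.8 to 21.8 in anti-Abeta. Most of that sum was Cd68, which was called in neither arm against control. It was called lower in sh-APP than in anti-Abeta, although the libraries of those groups overlapped. Tyrobp of the same list was called higher in sh-APP, with 5 and 1 counts in control, 20, 33 and 29 in sh-APP, and 10, 20 and 13 in anti-Abeta, and Csf1r had 7 and 0, 17, 31 and 11, and 17, 8 and 20 counts and was not called. Of 8 endothelial markers, Cldn5 was at 0 and Cdh5, Tie1 and Emcn stayed under 10 counts in every library. The sum was 6.08 to 6.70, 8.56 to 10.04 and 6.97 to 8.71 CPM in the same order. Of 4 tested, 2 (Egfl7 and Kdr) were called higher and 0 lower in sh-APP against control, and 0 in anti-Abeta against control. Egfl7, which overlaps Agpat2, had 90 and 96 counts in control, 350, 267 and 256 in sh-APP, and 111, 108 and 272 in anti-Abeta. Kdr had 3 and 0, 17, 20 and 10, and 17, 6 and 6 counts. The sum of 8 melanocyte and melanoma markers was 154 to 168 CPM in control, 60.8 to 73.0 in sh-APP and 89.0 to 125 in anti-Abeta. Most of it was Slc24a5, which overlaps another gene, and Mitf. Of 4 tested, 0 were called higher and 2 lower in sh-APP against control, Mitf among the latter. In anti-Abeta against control 0 were called higher and 1 lower. The part of these marker genes and cell types in the collagen results was not tested. In such cultures fewer cells of a type and less RNA per cell cannot be told apart.

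The 28 collagen genes together held 0.0601% and 0.0693% of all counts in control, 0.0881% to 0.0901% in sh-APP and 0.0844% to 0.0934% in anti-Abeta. Neither arm overlapped with control. As TMM-scaled levels the sums were 667 and 751 CPM in control, 830 to 864 in sh-APP and 825 to 946 in anti-Abeta. A few genes carried most of these counts. Col5a3 alone held 20.8% of them over all libraries, and Col5a3, Col16a1, Col18a1, Col6a1 and Col11a1 together 62.5%. Transcript lengths were not used here, so these shares are of reads and do not order the genes by the number of transcripts.

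**Figure D1:**
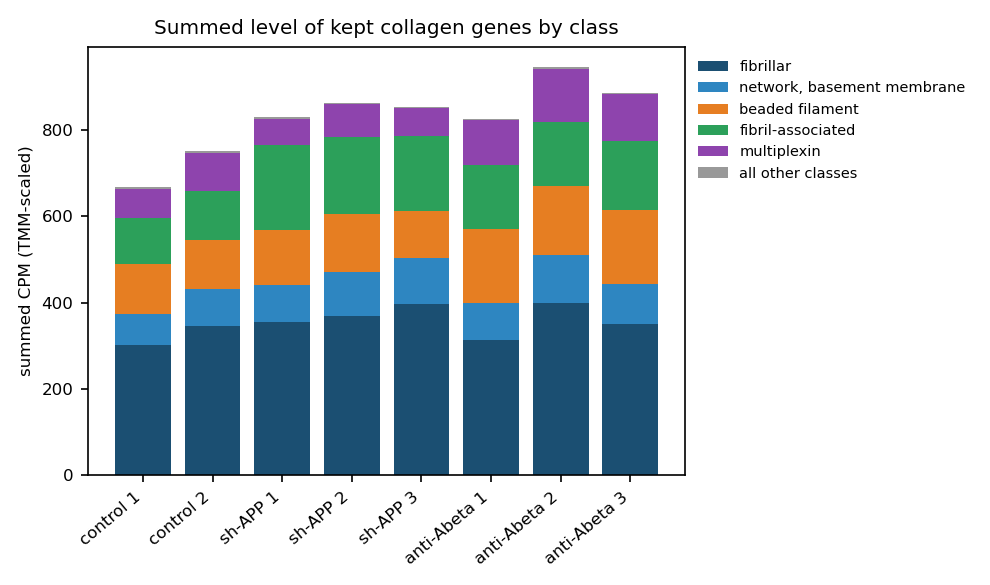
Summed TMM-scaled CPM of the kept collagen genes in each of the 8 libraries, stacked by class. The sum was 667 and 751 CPM in control and at least 825 in every library of the other groups, with a fibril-associated part of 108 and 113 CPM in control and 148 or more in the other groups.

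By class, 8 of the 28 were fibrillar, 4 were basement membrane network chains, 2 were hexagonal network chains, 4 were beaded filament chains, 7 were fibril-associated, 1 was a multiplexin (Col18a1), 1 an anchoring fibril chain (Col7a1) and 1 of another kind (Col26a1). No chain of a membrane-spanning collagen was kept. Of the 15 rows that were not kept, 2 had no count in any library and the highest single count was 40. Close to the rule's limit, Col14a1 was kept with 33, 12 and 32 counts in sh-APP and at most 5 elsewhere. Col20a1 was kept with 19, 13 and 16 counts in its highest libraries. Col2a1, the cartilage collagen, was left out with 19 and 14 counts in its highest libraries, and Col17a1 with 40 and 20. Col14a1 was the 1 member that passed through the sh-APP libraries alone, so its higher level there is a description, with no test. Col1a2, the partner chain of type I collagen, and Col21a1 are not analysed here.

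The first comparison asked how the astrocytes' collagens differ when the melanoma cells carry the App hairpin. Against control, 9 of 28 collagens rose and 2 fell in sh-APP in the quasi-likelihood test of edgeR, with p-values adjusted (Benjamini-Hochberg) over 14445 genes. These are 39.3% of the members, and 53.7% of all tested genes passed (25.8% higher and 27.9% lower). The groups did not overlap for 15 collagens that were higher and 4 that were lower in sh-APP, against 70.7% of all tested genes (35.7% higher and 35.0% lower). Without Col14a1 the 15 were 14. With library totals alone as scaling, 15 collagens rose and 2 fell, while 5174 of all 14445 tested genes were called higher (3723 in the main fit) and 3091 lower (4027). Leaving out 1 library at a time gave 6 to 11 that rose, the fewest without control replicate 1, and 2 that fell each time. The fibrillar genes Col3a1 and Col11a1 fell, while Col1a1, Col5a1 and Col5a3 of the same class rose. Among the fibril-associated genes Col16a1, Col12a1 and Col9a3 rose. The median log2 fold change was 0.48 over the members (0.47 without Col14a1) and 0.03 over all tested genes.

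The second comparison asked the same for an antibody against amyloid beta. Against control, 7 collagens rose and 1 fell in anti-Abeta, which is 28.6% of the members, and 29.2% of all tested genes passed (12.7% higher and 16.6% lower). The groups did not overlap for 9 collagens that were higher and 1 that was lower in anti-Abeta, against 54.9% of all tested genes (27.9% higher and 27.0% lower). The type VI genes Col6a1 and Col6a2 and the multiplexin gene Col18a1 rose, and so did Col16a1, Col9a3, Col5a1 and Col4a2. Col11a1 fell. The median was 0.39 over the members and 0.03 over all tested genes. Without control replicate 1 only Col6a2 of these 8 calls was left, and of the 15027 genes then tested 54 passed as higher and 385 as lower. With library totals alone as scaling, 10 collagens rose and 0 fell, while 3590 of all 14445 tested genes were called higher (1832 in the main fit) and 1417 lower (2391). Without anti-Abeta replicate 2, 6 collagens rose and 1 fell. The call of Col11a1 as lower was also lost without control replicate 2 or anti-Abeta replicate 1 or 3. Both comparisons used the same 2 control libraries.

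**Figure D2:**
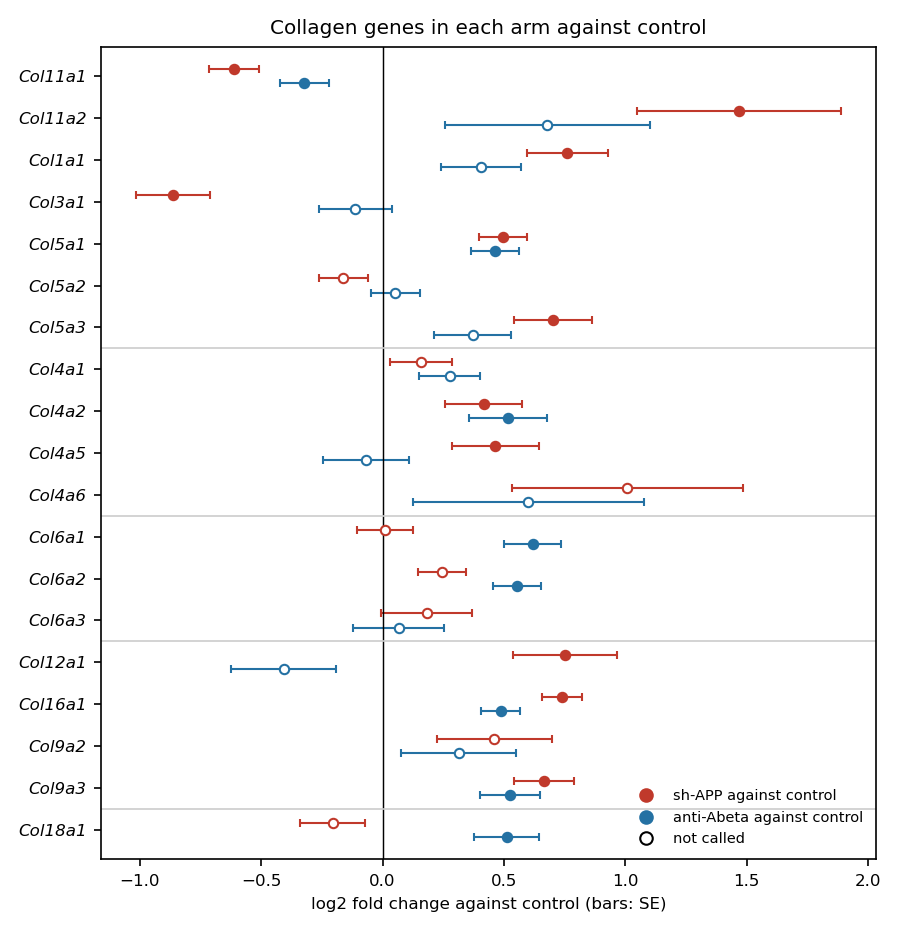
Log2 fold change against control of 19 collagen genes in sh-APP (red) and anti-Abeta (blue), with bars for the SE, filled points for called genes and open points for genes not called. Grey lines part the classes, from top to bottom fibrillar, basement membrane network, beaded filament, fibril-associated and multiplexin. Col3a1 and Col11a1 lie left of 0 in sh-APP, at -0.86 and -0.61, and Col6a1 lies at 0.01 in sh-APP and 0.62 in anti-Abeta.

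Among the fibrillar genes, Col3a1 showed the largest called fall of the set in sh-APP. It encodes the single chain of type III collagen, found in skin, vessels and scars. Its level was 24.2 and 28.4 CPM in control, 16.0, 13.0 and 14.3 in sh-APP, and 20.5, 28.8 and 23.5 in anti-Abeta (replicates in order). All sh-APP libraries lay below all others, and anti-Abeta lay across the control values. By edgeR the log2 fold change in sh-APP was -0.86 ± 0.15 (SE, adjusted p = 0.000429), and it was -0.11 ± 0.15 in anti-Abeta (0.615). Col3a1 has Col5a2, a chain of type V collagen, as its neighbour on the chromosome with no annotated gene between. Col5a2 stood at 43.6 and 49.3 CPM in control, 41.4, 39.2 and 44.1 in sh-APP, and 46.6, 53.3 and 44.8 in anti-Abeta, and it was called in neither arm (adjusted p = 0.206 and 0.736).

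Col11a1, a chain of type XI collagen that starts thin fibrils, was lower than control in both arms. It stood at 92.5 and 85.5 CPM in control, at 49.95, 65.3 and 59.5 in sh-APP and at 69.1, 72.04 and 72.4 in anti-Abeta. The 3 groups did not overlap, with control highest and sh-APP lowest. By edgeR the log2 fold change in sh-APP was -0.61 ± 0.10 (SE, adjusted p = 0.000291), and it was -0.32 ± 0.10 in anti-Abeta (0.0337). As given above, its anti-Abeta call depended on single libraries and on the scaling (adjusted p from 0.0130 to 0.212 over 16 alternatives). Its partner chain Col11a2 moved the other way at a low level, from 0.445 and 0.540 CPM in control to 1.23, 1.56 and 1.30 in sh-APP, with 0.885, 0.905 and 0.591 in anti-Abeta. In counts this was 16 and 20 in control against 54, 73 and 57 in sh-APP. Col11a2 rose by 1.47 ± 0.42 in sh-APP (adjusted p = 0.0106), a call lost without control replicate 1 (0.0665, in a range of 0.00489 to 0.0665 over 16 alternatives). It was named after its values were seen.

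Col1a1, the major chain of type I collagen, rose in sh-APP. Its level was 11.3 and 11.0 CPM in control, 20.7, 18.1 and 17.8 in sh-APP, and 11.4, 16.6 and 16.2 in anti-Abeta. The sh-APP libraries lay above all others, while anti-Abeta replicate 1 lay close to control. By edgeR the log2 fold change in sh-APP was 0.76 ± 0.17 (SE, adjusted p = 0.00194), and it was 0.40 ± 0.17 in anti-Abeta (0.0852). Without anti-Abeta replicate 1 the latter was 0.56 (adjusted p = 0.0194), and with library totals alone 0.55 (0.0177), and it passed under no other alternative (0.0177 to 0.272 over all 16). Col1a1 overlaps Sgca on the chromosome, and the sources used here do not give the strand setting of the counts.

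Type V collagen sits in the core of type I fibrils and limits their width, and its 3 chain genes differed from each other. Col5a1 stood at 21.7 and 21.4 CPM in control, 29.9, 29.6 and 31.7 in sh-APP, and 30.7, 30.6 and 27.9 in anti-Abeta. Both arms lay above control. Col5a1 rose by 0.50 ± 0.10 (log2, SE) in sh-APP (edgeR adjusted p = 0.000979) and by 0.46 ± 0.10 in anti-Abeta (0.00632), the latter a call lost without control replicate 1 (0.0688, in a range of 0.000336 to 0.0688). Col5a3 stood at 106 and 148 CPM in control, 193, 200 and 226 in sh-APP, and 132, 196 and 165 in anti-Abeta. Only the sh-APP libraries lay clear of control. Col5a3 rose by 0.70 ± 0.16 in sh-APP (adjusted p = 0.00276), a call lost without control replicate 1 (0.0609, in a range of 6.80e-05 to 0.0609), and had 0.37 ± 0.16 in anti-Abeta (0.101). Among the alternatives it was called in anti-Abeta with library totals alone, with a replicate block, without control replicate 2 and without anti-Abeta replicate 1. Col27a1, a fibrillar chain of cartilage, ranged from 1.08 to 2.68 CPM and was called in no comparison.

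In the basement membrane network, Col4a2 was called in both arms and Col4a1 in neither, although they share the promoter shown above. Col4a2 stood at 12.9 and 16.8 CPM in control, 17.1, 20.7 and 21.7 in sh-APP, and 20.6, 24.3 and 19.0 in anti-Abeta. Col4a1 stood at 44.5 and 51.0 in control, 46.4, 58.3 and 55.0 in sh-APP, and 50.2, 66.0 and 57.2 in anti-Abeta. For Col4a2 both arms lay above control, with sh-APP replicate 1 close to control replicate 2, and for Col4a1 the groups overlapped. The log2 fold changes of Col4a2 were 0.42 ± 0.16 (SE) in sh-APP (edgeR adjusted p = 0.0425) and 0.52 ± 0.16 in anti-Abeta (0.0302). Those of Col4a1 were 0.16 ± 0.13 (adjusted p = 0.327) and 0.28 ± 0.13 (0.124). The difference between the genes was not tested. The sh-APP call of Col4a2 was lost without control replicate 1, sh-APP replicate 2 or 3, or anti-Abeta replicate 1, and with limma-voom (adjusted p from 0.00323 to 0.343 over 16 alternatives). Its anti-Abeta call was lost without control replicate 1 or anti-Abeta replicate 1 or 2 (0.00540 to 0.297). Without control replicate 1 the values fell to 0.24 and 0.33. With library totals alone Col4a1 was called higher in both arms, at 0.36 and 0.42.

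Col4a5, a type IV chain encoded on the X chromosome and mutated in Alport syndrome, rose in sh-APP from 16.1 and 18.3 CPM in control to 21.1, 21.7 and 28.3, with 13.7, 20.2 and 15.1 in anti-Abeta. The sh-APP libraries lay above all others, with anti-Abeta across control. By edgeR the log2 fold change in sh-APP was 0.47 ± 0.18 (SE, adjusted p = 0.0429), and it was -0.07 ± 0.18 in anti-Abeta (0.806). The call was lost without control replicate 1 or 2 or sh-APP replicate 3, with DESeq2-type size factors and with the replicate block (adjusted p from 0.00359 to 0.239 over 16 alternatives). Its neighbour Col4a6, which was named after its values were seen, had 0.500 and 0.756 CPM in control against 0.958, 1.22 and 1.63 in sh-APP, a difference that did not pass (1.01 ± 0.48, adjusted p = 0.0935). The hexagonal network chains Col8a1 and Col8a2 stood between 0.193 and 2.18 CPM and were called in no comparison.

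The type VI genes Col6a1 and Col6a2 rose in anti-Abeta and were not called in sh-APP. Col6a1 stood at 59.2 and 59.3 CPM in control, 62.5, 67.1 and 49.5 in sh-APP, and 88.5, 86.4 and 98.0 in anti-Abeta. Col6a2 stood at 47.9 and 45.7 in control, 58.6, 58.1 and 49.6 in sh-APP, and 74.6, 66.7 and 64.8 in anti-Abeta. For both chains every anti-Abeta library lay above every library of the other groups. In anti-Abeta Col6a1 rose by 0.62 ± 0.12 (log2, SE; adjusted p = 0.00408, edgeR) and Col6a2 by 0.55 ± 0.10 (0.00340). The Col6a1 call was lost without control replicate 1 (0.0622, in a range of 3.80e-05 to 0.0622), and that of Col6a2 held under all 16 alternatives. In sh-APP Col6a1 had 0.01 ± 0.11 (adjusted p = 0.945), a value whose sign changed with DESeq2 and with its size factors, and Col6a2 had 0.24 ± 0.10 (0.0530). Col6a2 was called higher in sh-APP under 7 alternatives, among them library totals alone (0.45). The third chain of the common trimer, Col6a3, was named after its values were seen. It stood at 6.92 and 7.37 CPM in control, 6.46, 9.002 and 8.86 in sh-APP, and 7.73, 6.43 and 8.27 in anti-Abeta, with no call in either arm (adjusted p = 0.441 and 0.825). Col6a6 stayed at or below 0.550 CPM.

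**Figure D3:**
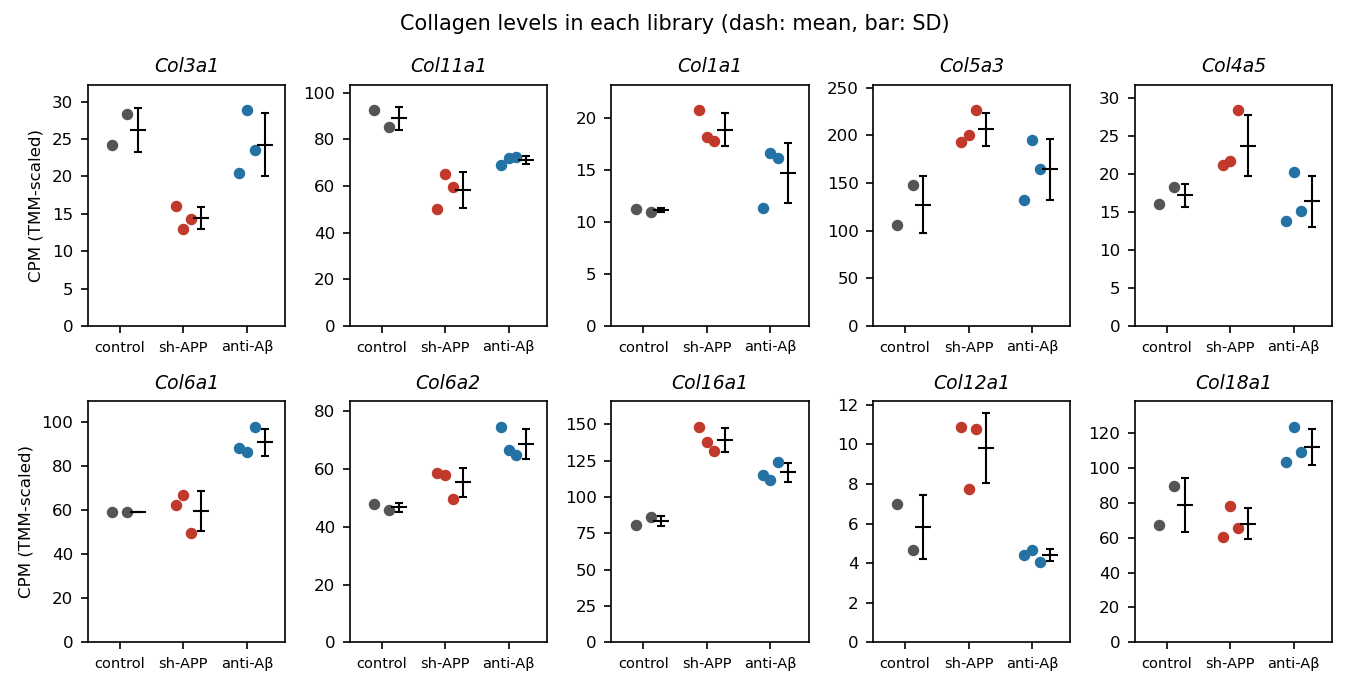
TMM-scaled CPM of 10 collagen genes in each library, with dots for libraries, a dash for the group mean and a bar for the SD, each gene on its own axis from 0. The group mean is lowest in sh-APP for Col3a1 and Col11a1, highest in anti-Abeta for Col6a1, Col6a2 and Col18a1, and highest in sh-APP for Col1a1, Col5a3, Col4a5, Col16a1 and Col12a1.

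The fibril-associated genes summed to 108 and 113 CPM in control, 175 to 197 in sh-APP and 148 to 159 in anti-Abeta, most of it from Col16a1. Col16a1 stood at 81.1 and 86.0 CPM in control, 148, 138 and 132 in sh-APP, and 115, 112 and 124 in anti-Abeta. The groups did not overlap, with control lowest and sh-APP highest. It had the smallest p of all members in sh-APP, rising by 0.74 ± 0.08 (log2, SE; adjusted p = 1.83e-05, edgeR), and it rose by 0.49 ± 0.08 in anti-Abeta (0.00280), a call lost without control replicate 1 (0.0550, in a range of 6.89e-06 to 0.0550).

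Col9a3, a chain of the type IX collagen that coats cartilage fibrils, rose in both arms. It stood at 17.2 and 19.95 CPM in control, 33.4, 27.6 and 27.5 in sh-APP, and 25.0, 27.3 and 27.8 in anti-Abeta. Both arms lay above control. The rise was 0.66 ± 0.12 (log2, SE) in sh-APP (edgeR adjusted p = 0.000652) and 0.52 ± 0.12 in anti-Abeta (0.00999), the latter lost without control replicate 1 (0.136, in a range of 0.00122 to 0.136). Its partner Col9a2, named after its values were seen, stood at 2.67 and 2.11 CPM in control, 3.22, 3.34 and 3.30 in sh-APP, and 3.05, 3.40 and 2.47 in anti-Abeta, and was not called (adjusted p = 0.121 and 0.348). The third chain, Col9a1, summed to 8 counts over the libraries and was left out.

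Col12a1, a large chain that decorates fibrils in tissue under load, had its highest values in sh-APP. It stood at 6.98 and 4.67 CPM in control, 10.9, 7.76 and 10.8 in sh-APP, and 4.42, 4.67 and 4.08 in anti-Abeta. The sh-APP libraries lay above all others, although control replicate 1 came near sh-APP replicate 2. Col12a1 rose by 0.75 ± 0.21 (log2, SE) in sh-APP (adjusted p = 0.0103, edgeR), a call lost without control replicate 2 (0.121, in a range of 0.00128 to 0.121), and had -0.41 ± 0.21 in anti-Abeta (0.174). Without control replicate 2 the values were 0.51 and -0.67, and without control replicate 1 they were 1.08 and -0.10. Col14a1, a relative of Col12a1, had 5 and 0 counts in control, 33, 12 and 32 in sh-APP, and 0, 4 and 0 in anti-Abeta. Col20a1 and Col22a1 stayed at or below 0.571 CPM and were called in no comparison.

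Col18a1 encodes a proteoglycan of basement membranes whose end piece is released as endostatin. It stood at 67.5 and 89.5 CPM in control, 60.6, 78.1 and 65.4 in sh-APP, and 103, 123 and 109 in anti-Abeta. Every anti-Abeta library lay above all others, and sh-APP lay across control. Col18a1 rose by 0.51 ± 0.13 (log2, SE) in anti-Abeta (adjusted p = 0.0157, edgeR). This call was lost without control replicate 1, with a value of 0.31 (0.214, in a range of 0.00279 to 0.214). In sh-APP it had -0.21 ± 0.13 (adjusted p = 0.214). Col7a1, which anchors skin to its basement membrane, and Col26a1 stayed at or below 1.05 CPM and were called in no comparison.

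The third comparison set sh-APP against anti-Abeta directly, in the same fit. Without Col14a1, 3 of 27 collagens were higher and 5 lower in sh-APP, which is 29.6% of them (4 and 5 of 28, or 32.1%, with it), and 26.1% of all tested genes passed (10.1% higher and 16.0% lower). The arms did not overlap for 5 collagens that were higher (6 with Col14a1) and 6 that were lower in sh-APP, against 41.3% of all tested genes (19.2% higher and 22.1% lower). The alternatives counted Col14a1 too. With library totals alone the split was 5 and 4, and over all tested genes it was 1923 and 1961 (1452 and 2316 in the main fit). Without anti-Abeta replicate 2 it was also 5 and 4. It was 1 and 3 without anti-Abeta replicate 1, 2 and 4 without anti-Abeta replicate 3 or sh-APP replicate 1, and 2 and 3 without sh-APP replicate 3. The genes lower in sh-APP were Col3a1 (log2 fold change -0.75 ± 0.14 SE, adjusted p = 0.00270, edgeR), Col18a1 (-0.72 ± 0.12, 0.00170), Col6a1 (-0.61 ± 0.10, 0.00182), Col6a2 (-0.31 ± 0.09, 0.0213) and Col11a1 (-0.29 ± 0.09, 0.0362). The genes higher in sh-APP were Col12a1 (1.16 ± 0.19, adjusted p = 0.00164), Col4a5 (0.53 ± 0.16, 0.0261) and Col16a1 (0.25 ± 0.07, 0.0221).

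The differences of Col3a1, Col18a1, Col6a1 and Col12a1 between the arms held under all 16 alternatives. That of Col6a2 was lost without sh-APP replicate 3 or anti-Abeta replicate 1 (adjusted p from 0.00845 to 0.0926), and that of Col4a5 without sh-APP replicate 3 or anti-Abeta replicate 1 or 3 (0.00541 to 0.118). The Col16a1 call was lost without sh-APP replicate 1 or anti-Abeta replicate 1 (0.00781 to 0.101). For Col11a1 the call was lost under 9 of 16 alternatives, among them leaving out any single library other than sh-APP replicate 2 (0.0128 to 0.142). Col5a1, which rose against control in both arms, differed by 0.03 ± 0.09 between them (adjusted p = 0.814), and Col4a2 by -0.10 ± 0.14 (0.645).

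**Figure D4:**
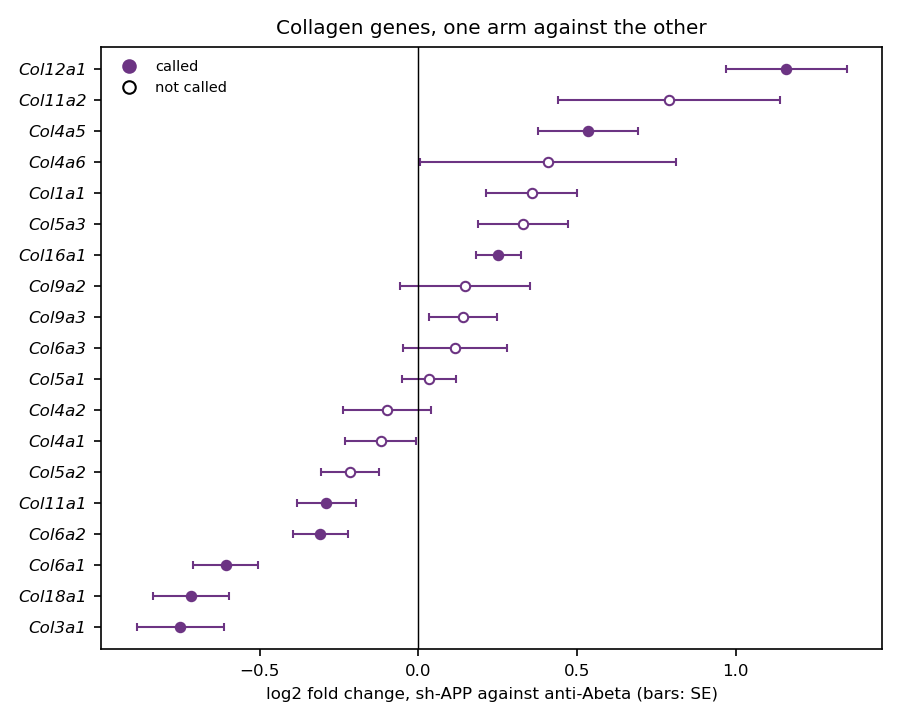
Log2 fold change of 19 collagen genes in sh-APP against anti-Abeta, with bars for the SE, filled points for called genes and open points for genes not called. Col12a1 is the highest called gene at 1.16, and Col3a1, Col18a1 and Col6a1 lie lowest, from -0.75 to -0.61.

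Collagen chains become collagen only through enzymes, chaperones and proteases, and 57 such genes, together with receptors and breakdown enzymes, were tested in 6 lists. In sh-APP against control 23 of them rose and 9 fell, with a median log2 fold change of 0.34, and in anti-Abeta 12 rose and 7 fell, with a median of 0.20. These are 56.1% and 33.3% of the 57, near the 53.7% and 29.2% of all tested genes. Among the 57, sh-APP was higher than anti-Abeta in 13 and lower in 7. This is 35.1% of them, and 26.1% of all tested genes passed (10.1% higher and 16.0% lower). Without sh-APP replicate 3 the counts were 4 and 4, and over the 14375 genes then tested 862 and 1704. Without control replicate 1 the anti-Abeta counts were 1 and 0, and with library totals alone 21 and 5. Of the 16 anti-Abeta calls among the 22 named genes, 0 held under every alternative. The text below therefore gives the anti-Abeta values of these genes without those calls.

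The hydroxylases and glycosyltransferases that modify the chains inside the cell counted 14 tested genes, of which 9 rose and 2 fell in sh-APP (78.6%, against 53.7% of all tested genes). P4ha2, a catalytic subunit of prolyl 4-hydroxylase, which makes the triple helix stable at body temperature, rose from 2.82 ± 0.37 CPM (SD, n = 2) to 6.78 ± 0.79 (n = 3), a log2 fold change of 1.26 ± 0.19 (SE, adjusted p = 0.000154, edgeR), and had 0.94 ± 0.19 in anti-Abeta. The more abundant subunit gene P4ha1 fell by 0.23 ± 0.08 in sh-APP (adjusted p = 0.0250), a call lost without control replicate 1 or sh-APP replicate 1 or 2, with the replicate block and with library totals alone (-0.02, in a range of adjusted p from 0.0136 to 0.813). The lysyl hydroxylase genes also parted. Plod2, whose product hydroxylates the chain ends and sets the kind of crosslink, fell from 65.7 ± 4.57 to 35.2 ± 1.06 CPM (-0.90 ± 0.12, adjusted p = 6.39e-05). Plod3, which also adds sugars, rose from 97.2 ± 2.66 to 147 ± 3.83 CPM (0.59 ± 0.08, adjusted p = 4.84e-05). P3h4, a partner of these enzymes, rose by 0.54 ± 0.08. In anti-Abeta Plod2 had -0.53 ± 0.12, Plod3 0.37 ± 0.08 and P3h4 0.35 ± 0.08.

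Of 13 genes of folding and export, 5 rose and 4 fell in sh-APP (69.2%, against 53.7% of all tested genes). Serpinh1, the collagen chaperone Hsp47, rose from 205 ± 15.4 to 333 ± 8.92 CPM (log2 fold change 0.70 ± 0.11 SE, adjusted p = 0.000153, edgeR), with 0.38 ± 0.11 in anti-Abeta. Fkbp10, a prolyl isomerase that works with it, rose by 0.55 ± 0.07, and Sparc, a secreted protein that binds collagen, by 0.71 ± 0.07. The export genes moved both ways. Mia2, which helps load large cargo at the exit sites of the endoplasmic reticulum, fell by 0.87 ± 0.11. Sec23a of the COPII coat fell by 0.45 ± 0.08, while Sec24d of the same coat rose by 0.45 ± 0.09 (adjusted p = 0.00148), and Tango6 rose by 0.34 ± 0.11 (0.0242). Sec31a and Mia3 were not called, and these 4 genes were named after their values were seen. Pdia3, a disulfide isomerase of glycoproteins, fell by 0.84 ± 0.09. The sh-APP calls of Serpinh1, Fkbp10, Sparc, Mia2, Sec23a and Pdia3 held under all 16 alternatives.

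**Figure D5:**
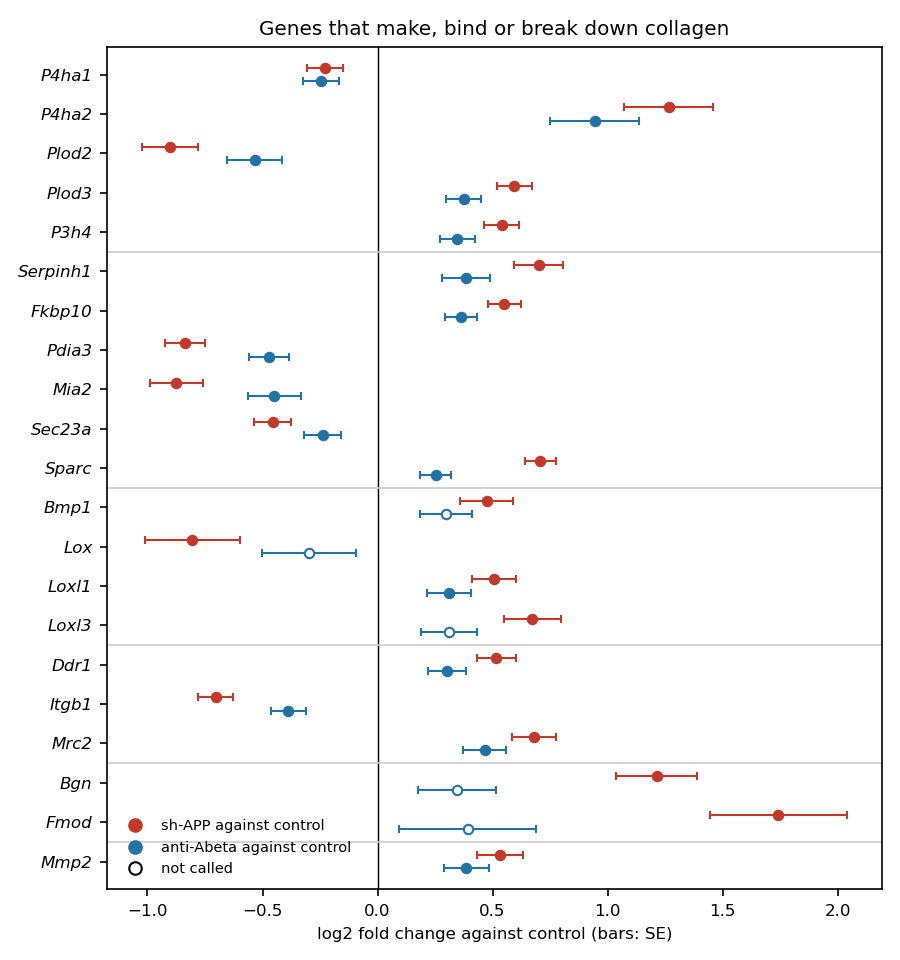
Log2 fold change against control of 21 genes that modify, fold, export, process, bind or break down collagen, in sh-APP (red) and anti-Abeta (blue), with bars for the SE, filled points for called genes and open points for genes not called. Grey lines part the 6 lists. Filled anti-Abeta points are calls of the main fit, of which 0 held under every alternative. Fmod, P4ha2 and Bgn lie farthest to the right in sh-APP, at 1.74, 1.26 and 1.21, and Plod2, Mia2 and Pdia3 farthest to the left, from -0.90 to -0.84.

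Outside the cell, procollagen is trimmed and then crosslinked by lysyl oxidases. Of 11 tested genes of these steps, 4 rose and 1 fell in sh-APP (45.5%, against 53.7% of all tested genes). Lox, the founding lysyl oxidase, fell from 16.4 ± 3.09 to 9.41 ± 1.81 CPM (log2 fold change -0.80 ± 0.20 SE, adjusted p = 0.00528, edgeR), a call lost without control replicate 1 (0.0948, in a range of 0.000468 to 0.0948). Its relatives Loxl1 and Loxl3 rose, by 0.50 ± 0.10 and 0.67 ± 0.12, and Loxl3 overlaps Htra2. Bmp1, the protease that cuts the carboxyl end of procollagen, rose by 0.47 ± 0.11, but not when control replicate 1 was left out (0.0688, in a range of 0.000164 to 0.0688).

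Of 7 tested collagen receptors, 2 rose and 1 fell in sh-APP (42.9%, against 53.7% of all tested genes). Ddr1, a receptor tyrosine kinase for collagen, rose from 407 ± 10.7 to 581 ± 34.5 CPM (log2 fold change 0.52 ± 0.08 SE, adjusted p = 0.000258, edgeR). Mrc2, the endocytic receptor that takes up collagen fragments, rose by 0.68 ± 0.09. Itgb1, the beta chain common to the collagen-binding integrins, fell from 1741 ± 106 to 1069 ± 64.8 CPM (-0.70 ± 0.08, adjusted p = 1.53e-05). Of its collagen-binding partners, Itga1 and Itga2 were tested and not called, and Itga10 and Itga11 stayed under 10 counts in every library.

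Of 5 tested leucine-rich proteoglycans that bind collagen fibrils, 2 rose and 0 fell in sh-APP, where 53.7% of all tested genes were called. Bgn (biglycan) had 302 and 188 CPM in control (245 ± 80.8) against 568 ± 36.3 in sh-APP, a log2 fold change of 1.21 ± 0.17 (SE, adjusted p = 0.000107, edgeR). Fmod (fibromodulin) went from 1.37 ± 0.34 to 4.595 ± 1.02 CPM (1.74 ± 0.30, adjusted p = 0.000355). In anti-Abeta neither was called, at 0.34 ± 0.17 (adjusted p = 0.149) and 0.39 ± 0.30 (0.351), though Bgn was called there without control replicate 1 (0.71, adjusted p = 0.0481) and with the replicate block (0.32, 0.0438), and stood at 0.038 without control replicate 2 (0.0438 to 0.884 over 16 alternatives). Both genes were higher in sh-APP than in anti-Abeta (0.87 ± 0.15 and 1.35 ± 0.25, adjusted p = 0.00211 and 0.00282). Dcn and Lum, which fibroblasts make in large amounts, stood at 0.85 ± 0.33 and 2.75 ± 2.07 CPM in control. Of 7 tested breakdown genes, 1 rose and 1 fell (28.6%, against the same 53.7%). Mmp2, a gelatinase, rose by 0.53 ± 0.10. Fap, a protease of activated fibroblasts, had 51 and 28 counts in control, 1, 0 and 3 in sh-APP, and 18, 11 and 1 in anti-Abeta, and was called lower in sh-APP (adjusted p = 0.00205).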

How the data were processed

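RNA-seq was measured in 8 astrocyte libraries. The authors' deposited table gives unnormalized counts for each gene symbol, and all values are whole numbers. The submitters' processing notes name Trimmomatic 0.36, STAR 2.6.0a, HTSeq 0.11.1, DESeq2 1.24.0 and rn6, without settings. Genes were kept by filterByExpr (minimum count 10, minimum total 15), which left 14445. All libraries entered one fit in edgeR 4.0.16 (R 4.3.3) with TMM factors, group as the only term and the robust quasi-likelihood test, called at an adjusted p of 0.05. SE was taken as the size of the log2 value over the root of its F statistic. Per-length levels were planned, but transcript lengths were not used here. The test was also run on simulated counts with the spread fitted to these libraries and 200 genes changed, in sh-APP only. Far more genes were called in the data, so that run does not bear on the calls given here.

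Values per library are given for members called anywhere with a mean of at least 5 CPM and for uncalled members of at least 20 CPM. Of each pathway list, up to 3 called genes per direction with the smallest p in sh-APP are named. Members and lists were chosen with earlier results of these data known. By a RefSeq table of GRCr8, which matched all 28 members, 15 of them overlap another annotated gene, so their counts are less certain. The alternatives were DESeq2 1.42.0, limma-voom (limma 3.58.1), DESeq2-type size factors, library totals alone, 2 other count filters, fits of the compared groups, a replicate block and leaving out each library.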

Additional observations from a re-analysis of the deposited data

How the results depend on the processing

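Of the 28 collagen calls over the 3 comparisons (1 of them Col14a1 between the arms), 11 held under every alternative run (6 of 11 in sh-APP, 1 of 8 in anti-Abeta and 4 of 9 between the arms), and no called collagen changed direction. With library totals alone as scaling, the median log2 fold change of all tested genes rose from 0.03 to 0.23 in sh-APP and to 0.18 in anti-Abeta. Collagens called higher in sh-APP then numbered 15, those called lower in anti-Abeta 0 (with 10 higher), and pathway genes called higher in anti-Abeta 21. Over all tested genes the number called higher also grew, from 3723 to 5174 in sh-APP and from 1832 to 3590 in anti-Abeta. Values that were not called changed sign for Col5a2 in sh-APP (0.042) and Col3a1 (0.033) and Col4a5 (0.077) in anti-Abeta. For Col6a1 in sh-APP the value was -0.0028 with DESeq2 and -0.0027 with its size factors. The causes were not tested.

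Leaving out each library in turn, collagens called in anti-Abeta ranged from 1 to 8 higher and 0 to 1 lower, and between the arms from 1 to 5 higher and 3 to 5 lower. Pathway genes ranged from 1 to 14 higher and 0 to 8 lower in anti-Abeta, and from 4 to 12 higher and 3 to 8 lower between the arms. Log2 fold changes not called whose sign depended on a library ranged from -0.39 to 0.028 for Col18a1 and -0.081 to 0.13 for Col6a1 in sh-APP. In anti-Abeta they ranged from -0.27 to 0.0068 for Col3a1, -0.26 to 0.039 for Col4a5, -0.043 to 0.14 for Col5a2 and -0.015 to 0.15 for Col6a3. Between the arms they ranged from -0.21 to 0.0072 for Col4a1, -0.18 to 0.026 for Col4a2, -0.011 to 0.076 for Col5a1 and -0.012 to 0.080 for P4ha1. Where a control library is left out, the other is assumed to vary like the libraries of the other groups.

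The replicate numbers were taken as names, since the labels do not say that they pair libraries and the correlations of same-numbered libraries' deviations ran from -0.01 to 0.11. With the replicate number as a block, 10 collagens were called higher and 2 lower in sh-APP, 8 and 1 in anti-Abeta, and 5 and 5 between the arms. Col6a3 in anti-Abeta was then at -0.0062. Over all genes pooled, replicates within groups differed by 17.1 to 45.8 times the variance that counting error gives. Genes with high counts weigh most in this value, so it does not tell how far depth limits the precision of single collagens. For members such as Col14a1, with at most 33 counts in a library, depth limits the precision too.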
